A study of Rattus norvegicus with 10 samples.

Results

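Osteopontin, the secreted phosphoprotein encoded by Spp1, and the genes of its main cell surface receptors were followed in rat left ventricle 3 days after gene transfer. The genes are Spp1 itself, Cd44, and the integrin subunit genes Itgav, Itga5, Itgb1, Itgb3 and Itgb5. They were found as the array features whose single annotated gene symbol was exactly one of these 7 names, which gave 13 probe sets for 7 genes, of 31099 probe sets and 14218 named genes on the array. A probe set is a group of short oligonucleotide probes that together give 1 signal for a transcript. Of the 13, 12 were bright enough to be tested, with at least 1 for every gene. Spp1 was included because it had one of the largest rises in this same comparison. Its values are therefore given as a description with no test. The receptor genes were included as known receptors and were tested. These receptors and the gene lists below were, however, chosen with earlier results of these data known.

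The p38 group of 5 samples had received MKK3bE, an activated form of a kinase directly upstream of p38, together with wild-type p38α. The 5 controls, called LacZ, were given a bacterial β-galactosidase gene in place of the kinases. Rats weighed 250 to 300 g, and the labels of 9 of the 10 samples state male Sprague-Dawley rats, while that of LacZ 1 gives neither strain nor sex. The labels describe injected hearts of animals that carry no other stated allele or drug, name no vector or promoter, and do not say which share of the ventricular cells took up the genes, so each value is an average over treated and untreated cells of whole ventricle. They do not state that each array came from its own animal, and p-values therefore measure the spread between these samples. Each sample was hybridised to 1 array, so precision is limited by 5 arrays per group. The 95% interval of a log2 fold change extended 0.276 to either side at the median tested probe set.

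Osteopontin carries an arginine-glycine-aspartate motif through which it binds integrins, which are paired α and β subunits that link the matrix to the actin cytoskeleton. Integrins that pair the αv subunit with β1, β3 or β5, and the integrin α5β1, recognise it. CD44, best known as the receptor of the matrix sugar hyaluronan, also serves as an osteopontin receptor. In the healthy adult heart osteopontin is sparse. It is made by macrophages, fibroblasts and muscle cells after injury or overload, and it is known for roles in cell adhesion, macrophage recruitment and scar formation.

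Facts that hold for all results come first. Cardiomyocyte markers were among the brightest signals in both groups, with the cardiac myosin gene Myh6 at a log2 level of 13.70 ± 0.05 (SD, n = 5) in LacZ and 13.73 ± 0.03 in p38, which fits the tissue on the labels. Array medians of the deposited signals ran from 60.3 to 88.05. The instrument file of each array names a fluidics status, which read Completed for LacZ 1 to 4, p38 4 and p38 5, and Started for LacZ 5 and p38 1 to 3, so that status and group overlapped in part. Of 16 markers of macrophages tested, 13 rose, where 11.6% of all tested genes rose. The other 3 did not pass by limma. Csf1r and Mrc1 had log2 fold changes of 0.44 and 0.51 (adjusted p = 0.155 and 0.109), and Cd163 one of -0.23 (adjusted p = 0.207). The summed signal of the 16 markers ran from 11173 to 16781 on the LacZ arrays and from 14624 to 31665 on the p38 arrays. With 1 array left out, between 6 (without LacZ 3 or p38 4) and 15 (without p38 1) of them rose. LacZ 5 held the highest of the LacZ sums and p38 1 the lowest of the p38 sums. In whole tissue a lower or higher level of a transcript cannot be told apart from a change in the number of cells that carry it.

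Cd44 and Itgb1 are the receptor genes that passed the test given below, both higher in p38, and Spp1 was chosen for its rise. The bases just upstream of the start of Spp1, Cd44 and Itgb1 are therefore shown. They are the 250 bases before the gene's start in the RefSeq promoter table of the GRCr8 build, in which 6 of the 7 genes were found. The array files carry no coordinates of their own. Capitals mark motif matches found on either strand, and no matches overlapped.
Spp1: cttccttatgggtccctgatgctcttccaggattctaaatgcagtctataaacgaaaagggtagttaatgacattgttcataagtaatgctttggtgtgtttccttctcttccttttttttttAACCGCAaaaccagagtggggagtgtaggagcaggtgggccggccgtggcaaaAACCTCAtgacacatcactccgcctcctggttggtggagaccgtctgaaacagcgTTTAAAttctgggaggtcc
Cd44: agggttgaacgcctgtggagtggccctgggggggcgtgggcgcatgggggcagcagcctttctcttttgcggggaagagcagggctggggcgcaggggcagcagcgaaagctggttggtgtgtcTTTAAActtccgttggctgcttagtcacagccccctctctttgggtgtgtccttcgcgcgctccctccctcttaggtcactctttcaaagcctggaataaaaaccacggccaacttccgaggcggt
Itgb1: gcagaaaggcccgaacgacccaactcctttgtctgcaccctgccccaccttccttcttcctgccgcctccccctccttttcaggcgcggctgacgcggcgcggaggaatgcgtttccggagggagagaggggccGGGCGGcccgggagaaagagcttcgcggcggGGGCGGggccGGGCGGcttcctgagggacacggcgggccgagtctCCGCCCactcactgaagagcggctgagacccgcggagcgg
The Spp1 window lies at chr14:5619805-5620054 on the minus strand. It holds TGNGGTT, a loose form of the motif of RUNX factors in which N is any base. RUNX factors are a family first known from bone and blood cells. The 2 matches are AACCGCA, 127 to 121 bases before the start, and AACCTCA, 74 to 68 bases before it. The TATA-like motif TTTAAA lies 19 to 14 bases before the start. The Cd44 window, at chr3:109699425-109699674 on the minus strand, holds TTTAAA 126 to 121 bases before the start. The Itgb1 window, at chr19:73602027-73602276 on the plus strand, has 4 GC boxes, matches to GGGCGG, and a GC content of 71.2% against 46.8% for Spp1 and 60.8% for Cd44. Of all 33469 windows in the table, 12.9% hold the loose form TGNGGTT, 12.3% hold TTTAAA and 30.5% hold a GC box. Neither the AP-1 motif TGANTCA nor the cyclic AMP response motif TGACGTCA, which occur in 6.3% and 1.6% of all windows, was found in any of the 6 windows searched.

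Spp1 was the third highest of 10596 tested genes by log2 fold change. On the log2(signal + 16) scale its level was 8.46, 9.15, 9.30, 8.23 and 10.03 on LacZ 1 to 5 and 10.43, 12.05, 11.2, 12.98 and 12.69 on p38 1 to 5. Every p38 array lay above every LacZ array, but LacZ 5 and p38 1 lay close to each other, and p38 4 and p38 5 stood highest. The deposited signals, before any normalization between arrays, ran from 261.7 on LacZ 4 to 8399 on p38 4, a 32.1-fold range over the 10 arrays. The group means were 9.03 ± 0.71 in LacZ and 11.87 ± 1.06 in p38 (SD, n = 5 each), a log2 fold change of 2.84 with a standard error of 0.45, or 7.14-fold. For scale, 192 of the 10596 tested genes were at least 2-fold higher in p38. Within Completed arrays the difference was 4.05 (4 LacZ and 2 p38 arrays) and within Started arrays 1.2 (1 LacZ and 3 p38 arrays). Within the 4 fluidics modules of the instrument, each of which held both groups, it ran from 2.41 to 3.74.

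**Figure D1:**
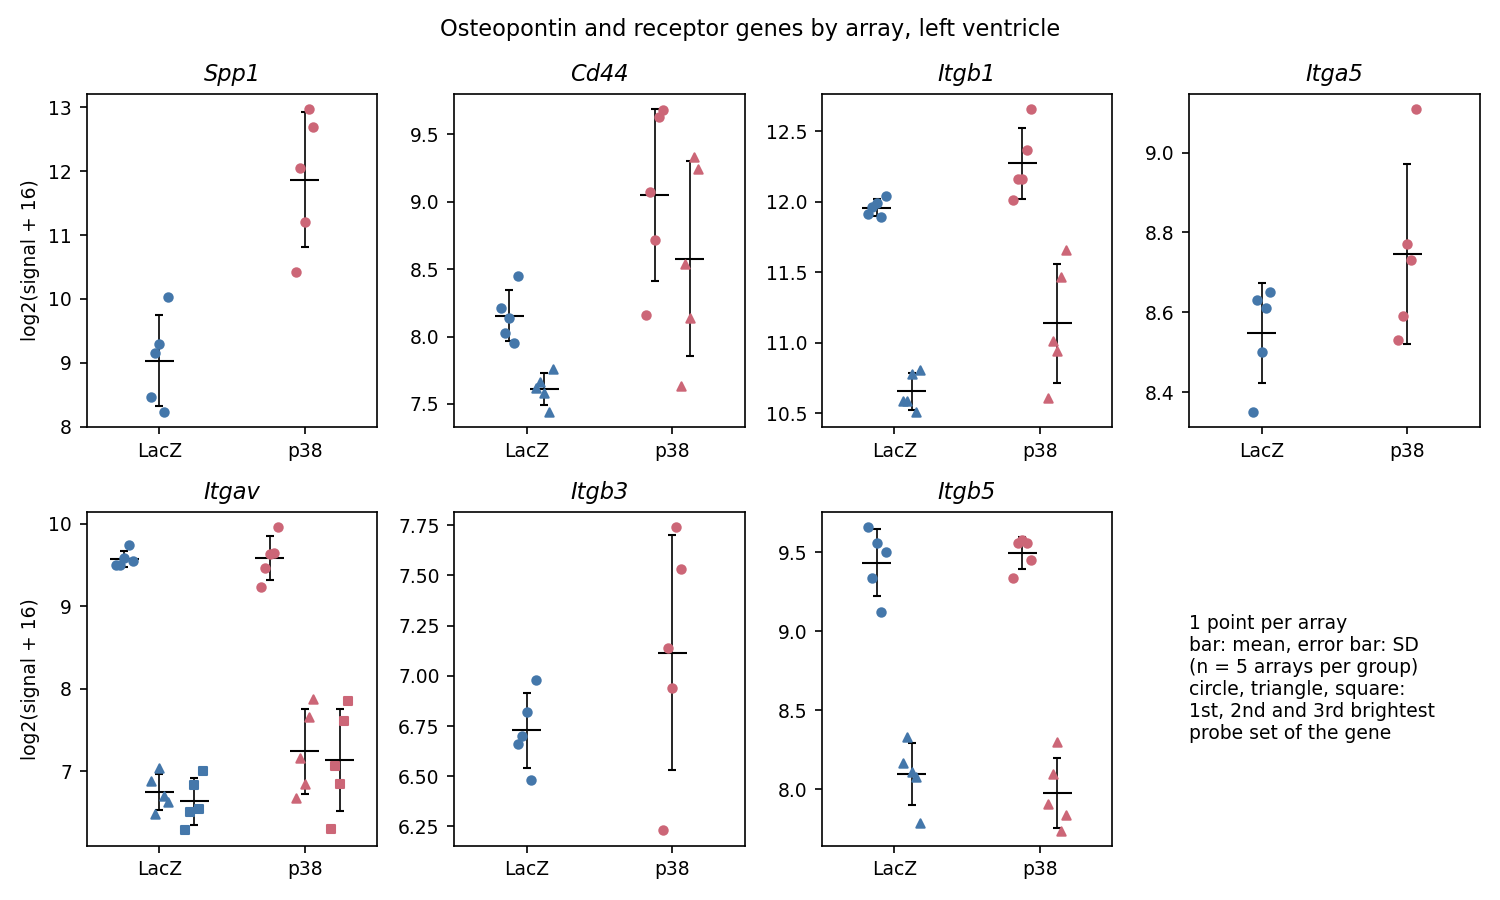
Levels of the 7 genes on each array, as log2(signal + 16) after quantile normalization, with LacZ in blue and p38 in red, the horizontal bar at the mean and error bars of 1 SD over 5 arrays; each gene has its own y axis and, where it has several tested probe sets, its own symbol for each. The p38 arrays spread more widely than the LacZ arrays for most genes, and the groups are fully apart for Spp1 alone.

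The receptor genes had smaller fold changes than Spp1, which is no finding about them, since Spp1 was chosen for its large rise. Of the 6 receptor genes, 2 rose by the probe set that stands for the gene, Cd44 and Itgb1, none fell, and 4 did not pass the test. Over all genes tested, 11.6% rose and 6.23% fell. Counted by probe set, 3 of 11 rose, where 8.60% of all tested probe sets rose and 7.40% fell, and 5 of 11 had an unadjusted p under 0.05. The median log2 fold change was 0.25 over the 6 genes, against 0.00 over all tested genes. For none of the 11 receptor probe sets were the groups fully apart. Over the array 5.62% of probe sets had every p38 array above every LacZ array and 5.43% had every p38 array below. At such low shares, none of 11 does not set the receptors apart from the array.

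Cd44 encodes the hyaluronan receptor that also binds osteopontin. Its level was 8.21, 8.03, 8.14, 7.95 and 8.45 on LacZ 1 to 5 and 8.16, 9.07, 8.72, 9.63 and 9.68 on p38 1 to 5 (probe set 1368921_a_at). On p38 2 to 5 it exceeded every control, and p38 1 lay among the controls. Cd44 rose 1.86-fold, a log2 fold change of 0.90 ± 0.24 (SE) with an adjusted p of 0.0279 by limma. Its second probe set, 1387952_a_at, read 7.62, 7.66, 7.58, 7.44 and 7.76 in LacZ and 7.63, 8.54, 8.14, 9.33 and 9.24 in p38. The same p38 1 array was again level with LacZ there. This probe set rose 1.95-fold (log2 fold change 0.96 ± 0.27, adjusted p = 0.0296). Both calls were kept without LacZ 5, p38 1 or p38 3 and lost without each of the other 7 arrays, with adjusted p from 0.0569 to 0.0732 for the first probe set and from 0.0576 to 0.0732 for the second. That of the second was also lost without the brightness filter (adjusted p = 0.0528). Within Completed arrays the first probe set differed by 1.57 and within Started arrays by 0.20, and the second by 1.71 and 0.34.

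Itgb1 encodes the β1 subunit, the common partner of many α subunits and the main β subunit of cardiomyocytes. Its level was 11.91, 11.96, 11.99, 11.89 and 12.04 on LacZ 1 to 5 and 12.01, 12.16, 12.16, 12.37 and 12.66 on p38 1 to 5 (probe set 1368819_at). All p38 arrays but p38 1 exceeded every control. The rise was 1.24-fold, a log2 fold change of 0.31 ± 0.10 (SE), and its adjusted p of 0.0491 lay just under the threshold. The call was lost without any single array other than p38 1 and p38 3 (adjusted p from 0.0601 to 0.113), and under each of 8 other settings on all 10 arrays, among them no normalization between arrays (adjusted p = 0.0946) and the mean of all its probe sets. The second Itgb1 probe set, 1387346_at, read 10.59, 10.59, 10.78, 10.51 and 10.81 in LacZ and 10.61, 11.01, 10.94, 11.47 and 11.66 in p38. Its change was larger, 0.48 ± 0.16, but did not pass (adjusted p = 0.0616). It did pass without p38 1 (adjusted p = 0.00899), when the fit was blocked on fluidics status (0.62, adjusted p = 0.0173) and when arrays were weighted (adjusted p = 0.0179). Within Completed and Started arrays the first probe set differed by 0.57 and 0.07, and the second by 0.94 and 0.04.

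**Figure D2:**
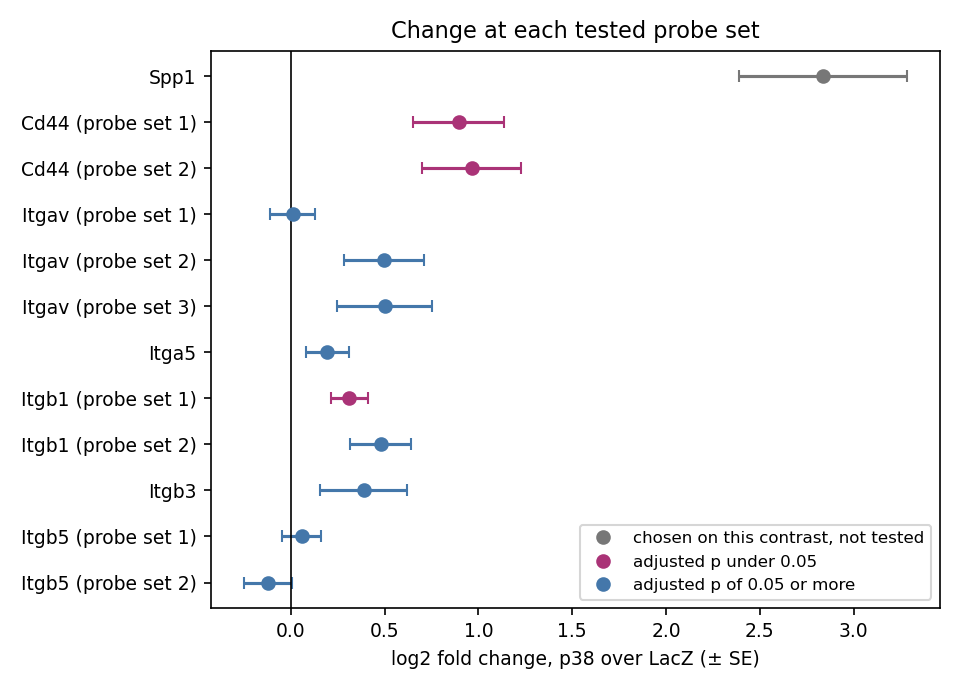
Log2 fold change of p38 over LacZ for the 12 tested probe sets (point) with its standard error from the limma fit (bar), numbered by brightness within a gene. Spp1 (grey, chosen on this contrast and not tested) stands at 2.84, both Cd44 probe sets and 1 Itgb1 probe set (magenta) passed at an adjusted p under 0.05, and the other 8 (blue) did not.

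Itgav encodes the αv subunit that pairs with β1, β3 and β5 to form vitronectin and osteopontin receptors, and its 3 probe sets differed. The brightest, 1393226_at, read 9.50, 9.50, 9.59, 9.74 and 9.55 on LacZ 1 to 5 and 9.23, 9.46, 9.63, 9.65 and 9.96 on p38 1 to 5. The groups overlapped, with p38 1 lowest and p38 5 highest of all 10 arrays. The log2 fold change was 0.01 with a 95% interval from -0.25 to 0.27 (adjusted p = 0.963). The dimmer probe sets 1386581_at and 1383880_at each changed by 0.50, with standard errors of 0.21 and 0.25, and did not pass (adjusted p = 0.122 and 0.184). The first of these ran from 6.48 to 7.04 in LacZ and from 6.67 to 7.87 in p38, and the second from 6.28 to 7.0 and from 6.30 to 7.85. Without p38 1 both passed, with adjusted p of 0.0333 and 0.0287. The first also passed when the fit was blocked on fluidics status (0.73, adjusted p = 0.0147) and when arrays were weighted (adjusted p = 0.0431). As given for Itgb1, more of the whole array passed in these settings. The gap between each dimmer probe set and the brightest was also compared between groups within arrays, a comparison chosen after the values had been seen. The gap was 0.49 larger in p38 for both, with 2-sided exact permutation p of 0.0397 and 0.0635 over 252 splits, and 0.0635 for both after adjustment over the 2 comparisons. The probe sets of Itgav thus gave unlike values, but the difference between them did not pass.

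Itga5 encodes the α5 subunit of the classical fibronectin receptor. Its 1 probe set, 1385649_at, read 8.35, 8.63, 8.50, 8.61 and 8.65 on LacZ 1 to 5 and 8.53, 8.59, 8.77, 8.73 and 9.11 on p38 1 to 5. The 3 arrays p38 3 to 5 lay above all LacZ arrays, and p38 1 and p38 2 lay within their range. The log2 fold change was 0.19 ± 0.11 (SE) with a 95% interval from -0.05 to 0.44, and it did not pass (adjusted p = 0.252).

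Itgb3 encodes the β3 subunit, which joins αv in the vitronectin receptor of macrophages, endothelium and osteoclasts and joins the αIIb subunit on platelets. Its probe set 1397317_at read 6.66, 6.70, 6.82, 6.48 and 6.98 on LacZ 1 to 5 and 6.23, 7.14, 6.94, 7.74 and 7.53 on p38 1 to 5. The arrays p38 2, p38 4 and p38 5 were above all LacZ arrays and p38 1 was below all of them, so this gene had the p38 group on both sides of LacZ. The log2 fold change was 0.39 ± 0.23 (SE), with a 95% interval from -0.11 to 0.89 (adjusted p = 0.260). Without p38 1 it passed (adjusted p = 0.0211). The platelet subunit gene Itga2b changed by -0.29 and did not pass, and the platelet markers Gp9, Ppbp and Gp5 were too dim to be tested.

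Itgb5 encodes the β5 subunit of a second vitronectin receptor. Its brightest probe set, 1398358_a_at, read 9.66, 9.34, 9.56, 9.12 and 9.50 on LacZ 1 to 5 and 9.34, 9.56, 9.58, 9.56 and 9.45 on p38 1 to 5. No p38 array lay outside the LacZ range, and this was the single tested member probe set whose SD was smaller in p38 (0.10 against 0.21). The change was 0.06 with a 95% interval from -0.17 to 0.28 (adjusted p = 0.734), so a change of 1.5-fold in either direction lay outside the interval. The second probe set, 1370802_at, ran from 7.79 to 8.33 in LacZ and from 7.74 to 8.30 in p38, and its change of -0.12 had an interval from -0.39 to 0.15 (adjusted p = 0.537). Refitted within Completed arrays it fell by 0.39 (adjusted p = 0.0293), and within Started arrays it changed by 0.31. The third, 1396133_at, ran from 4.31 to 5.60 and from 5.19 to 5.66, below the brightness limit of 5.80 in both groups on average, and was not tested.

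At the member probe sets the p38 arrays differed more among themselves than the LacZ arrays did. The counts that follow were not made over all tested probe sets, so they cannot show a trait of the members. Several of these probe sets also belong to the same gene and are not separate observations. The SD was larger in p38 for 11 of the 12 tested member probe sets. For 11 of the 12, p38 1 was the lowest p38 array, and for 9 of the 12, p38 4 and p38 5 were the highest p38 arrays. LacZ 5 was the highest LacZ array for 8 of all 13 member probe sets. The mean deviation of the 16 macrophage markers from their LacZ mean followed a like order, with -0.17, -0.11, 0.03, -0.16 and 0.41 on LacZ 1 to 5 and 0.17, 0.84, 0.63, 1.27 and 1.28 on p38 1 to 5. The part of macrophage content in the member values was not tested. Other marker lists also differed between arrays. The mean of 5 smooth muscle markers was 0.09, 0.24, 0.42, 0.40 and 0.65 on p38 1 to 5 and from -0.17 to 0.20 in LacZ. Of these markers Cnn1, Tagln and Acta2 changed by 1.91, 0.54 and 0.39, and Myh11 and Smtn by -0.46 and -0.56. The mean of 6 T and NK cell markers reached 0.59 on p38 4, and that of 5 endothelial markers reached -0.36 there. The T and NK cell mean includes Cd8a, which cleared the brightness limit through the p38 arrays alone. Cd8a read 7.92 on p38 4, against a LacZ mean of 5.78. The parts of these cell types were not tested. Fibroblast marker means lay between -0.24 and 0.21. Cardiomyocyte marker means lay between -0.10 and 0.02 by the brightest probe sets, but a dimmer probe set of Myh6 fell by 0.72 (adjusted p = 0.0100), and one of the myosin light chain gene Myl2 changed by -0.49 (adjusted p = 0.0517).

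**Figure D3:**
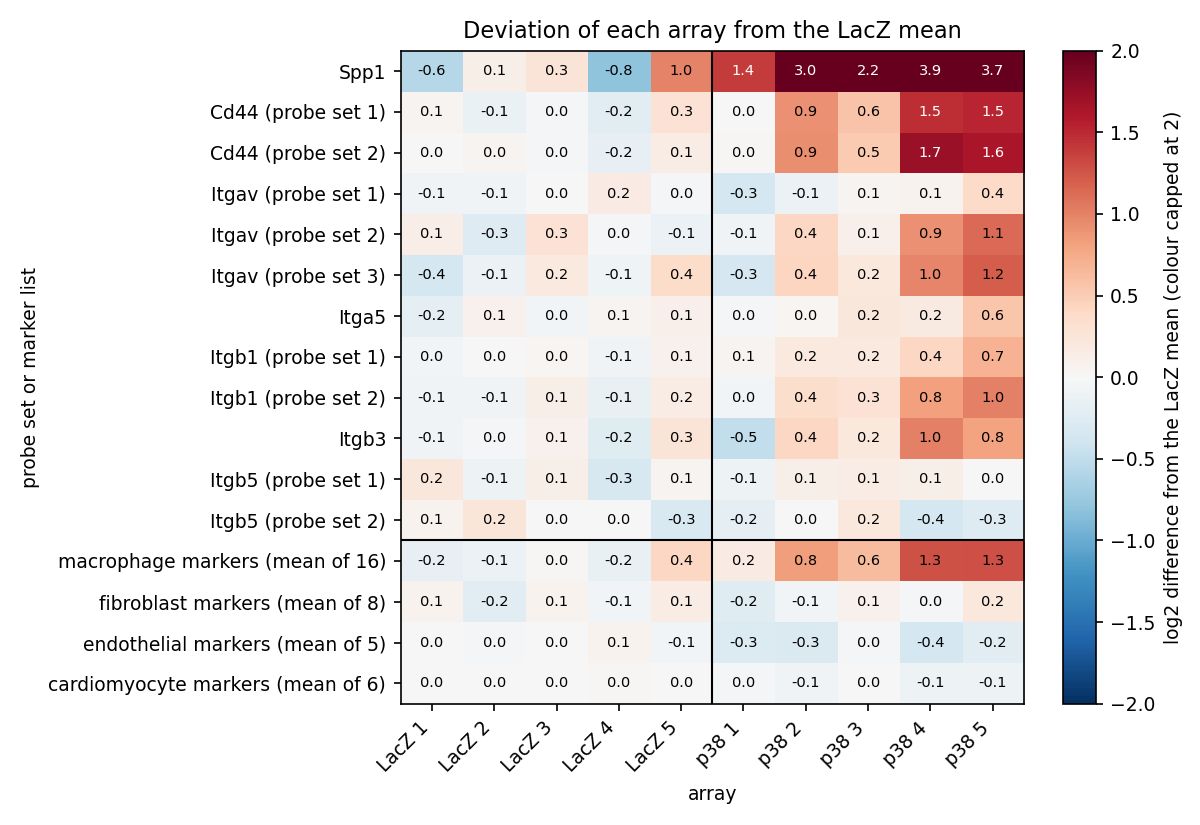
Difference of each array (columns) from the LacZ mean on the log2 scale, for the 12 tested member probe sets and the mean of 4 cell type marker lists (rows), in blue for lower and red for higher, with the value in each cell. The arrays p38 2, p38 4 and p38 5 are high and p38 1 is near LacZ both for Cd44 and for the macrophage markers, while the Itgb5 probe sets show both signs and the cardiomyocyte markers stay close to 0.

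Across the 10 arrays the members fell into an order by likeness to Spp1, given as a description since all 10 arrays share the group difference that put Spp1 on the list. Pearson's r with Spp1 was 0.94 and 0.93 for the Cd44 probe sets, 0.88 and 0.90 for those of Itgb1 and 0.80 for Itgb3. It was 0.67 for Itga5, 0.27, 0.78 and 0.83 for the 3 Itgav probe sets, and 0.34 and -0.51 for the tested Itgb5 probe sets. Cd44 and Itgb1 were therefore closest to the ligand. By the brightest probe set of each gene Itgav was farthest (0.27), and over all tested probe sets the dimmer one of Itgb5 was (-0.51). Outside the members, the 8 genes most like Spp1 over the 10 arrays were the monocyte-attracting chemokine gene Ccl7 (r = 0.992), Pttg1 or securin, an inhibitor of sister chromatid separation (0.992), the lysozyme gene Lyz2 (0.990), Gmfg (0.989), the oxidised LDL receptor gene Olr1, dim in LacZ (0.987), Lgals3 or galectin-3 (0.986), Arl11 (0.985) and Tnfrsf11b, which encodes osteoprotegerin (0.985). Lyz2 and Lgals3 are also on the macrophage marker list. The 8 most like Cd44 were Prr13 (0.994), RT1-DMa, a peptide-loading gene of MHC class II (0.992), Lrrc59 (0.992), Rai14 (0.991), the EGR corepressor gene Nab2 (0.990), the kinetochore gene Zwint (0.989), the leukocyte lysosomal gene Laptm5 (0.989) and Lcp1, the leukocyte actin-bundling protein plastin (0.989). None of the 16 genes was on both lists.

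Most other integrin subunits did not pass the test. Of 10 other α subunits tested, by the brightest probe set of each, 2 rose, none fell, and the median log2 fold change was -0.05. Here and for the lists below, the shares over all tested genes were 11.6% rising and 6.23% falling. A dimmer probe set of Itga6, a laminin-binding subunit, fell by 0.56 (adjusted p = 0.0184), while the brightest changed by -0.09 and the 2 others by -0.56 and -0.22 without passing. Itgax, the αX subunit of dendritic cells and macrophages, rose 1.71-fold (adjusted p = 0.0272), and Itgae, the αE subunit of intraepithelial lymphocytes, rose 1.32-fold (adjusted p = 0.0488). Both are leukocyte subunits, as are Itgal and Itgb7, which had log2 fold changes of 0.31 and 0.16 that did not pass (adjusted p = 0.395 and 0.462). The αM gene Itgam was too dim to be tested. Of 3 other β subunits, Itgb2, the β2 subunit shared by leukocyte integrins, rose 1.60-fold from 8.34 ± 0.25 to 9.02 ± 0.49 (SD, adjusted p = 0.0418), and Itgb4, the laminin-binding β4 subunit of hemidesmosomes, fell by 0.51 on the log2 scale (adjusted p = 0.0177) with every p38 array below every LacZ array. The calls of Itgax, Itgae and Itgb2 were each lost when any of 5, 8 and 7 single arrays was left out, and that of Itgb4 in no such case. Itgax and Itgb2 are expressed by macrophages. Itgax did not share the array order of the macrophage markers, with LacZ 4 the highest LacZ array (7.57) and p38 3 the lowest p38 array (7.28). Itgb2 shared the low p38 1 (8.3), but its highest LacZ array was LacZ 3 (8.7). The part of macrophage content in both was not tested.

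Other ligands of the αv and α5 integrins gave 2 rises and no fall among 13 tested by their brightest probe sets, with a median of 0.35. Of all tested genes, 11.6% rose and 6.23% fell. The other probe set of the nidogen gene Nid1 fell by 0.44 (adjusted p = 0.0364), while its brightest changed by 0.00. Ccn2, the matricellular connective tissue growth factor, read 10.18, 9.96, 10.19, 10.19 and 10.93 on LacZ 1 to 5 and 10.87, 11.88, 11.28, 12.23 and 12.42 on p38 1 to 5. As with Spp1, LacZ 5 was the highest control and p38 1 the lowest p38 array, here crossing each other. Ccn2 rose 2.72-fold (log2 fold change 1.44 ± 0.27, adjusted p = 0.00911), and no array left out ended that call. Tnc, which encodes tenascin-C, a matrix glycoprotein of remodelling tissue, rose 3.35-fold (1.75 ± 0.49, adjusted p = 0.0304), a call lost without any of 7 single arrays, and within Started arrays its difference was -0.35. Fibronectin (Fn1), the main ligand of the α5 subunit, had a log2 fold change of 0.97 that did not pass (adjusted p = 0.0625), and vitronectin (Vtn) one of -0.38 (adjusted p = 0.0932). The relatives of osteopontin in bone and tooth, Ibsp, Dmp1, Dspp and Mepe, were all 4 too dim to be tested.

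Genes around CD44 and hyaluronan gave 1 rise and 1 fall among 12 tested, with a median of 0.39. Over all tested genes the shares were 11.6% and 6.23%. Has2, a hyaluronan synthase, rose 1.47-fold (adjusted p = 0.0469). Nf2, whose product merlin links CD44 to growth control, fell by 0.27 (adjusted p = 0.0482) at its brightest probe set, but the mean of all its probe sets changed by 0.05. The hyaluronan-binding Tnfaip6, the proteoglycan gene Vcan and Msn, which encodes the CD44-anchoring protein moesin, had log2 fold changes of 1.12, 0.70 and 0.60 that did not pass (adjusted p of 0.0590, 0.0721 and 0.0697), and these genes were named after their values had been seen. The calls of Has2 and Nf2 were lost without any of 7 and 8 single arrays.

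Among proteases that cut osteopontin and the enzyme that crosslinks it, 2 of 6 tested passed, both higher, where 11.6% of all tested genes rose. Of the 2, Mmp12 cleared the brightness limit through the p38 arrays alone. Among the 5 on this list bright in both groups 1 rose and none fell. Plau, the urokinase plasminogen activator, read from 6.12 to 7.09 in LacZ and from 6.73 to 9.27 in p38 and rose 2.98-fold (1.57 ± 0.39, adjusted p = 0.0198). Mmp12, the macrophage metalloelastase, was 6.89 ± 0.77 (SD, n = 5) in p38, and its LacZ mean of 5.39 ± 0.62 lay below the brightness limit, so it was at least 2.03-fold higher. Fitted without any brightness filter its adjusted p was 0.0361. Plau lost its call without LacZ 1 or p38 4 (adjusted p from 0.0514 to 0.0538). Transglutaminase 2 (Tgm2), the crosslinking enzyme, changed by 0.10. Mmp3, Mmp7, Mmp9 and prothrombin (F2) were too dim to be tested.

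Genes that carry integrin signals to the cytoskeleton gave 3 rises and 2 falls among 21 tested, with a median of 0.03. By comparison 11.6% of all tested genes rose and 6.23% fell. Actn1, the α-actinin of adhesion sites in non-muscle cells, rose 2.17-fold (1.12 ± 0.28, adjusted p = 0.0226). Fermt3, the kindlin of blood cells, rose 1.94-fold (adjusted p = 0.0479), and Lims1, the PINCH adaptor of integrin-linked kinase, rose 1.14-fold (adjusted p = 0.0452), while its other probe set changed by -0.17 and did not pass. Tns1, which encodes tensin at the ends of actin fibres, fell by 0.44 (SE 0.08, adjusted p = 0.00818), with every p38 array below every LacZ array. Parvb, a parvin that binds integrin-linked kinase, fell by 0.34 (adjusted p = 0.0385). The other tested probe set of Tns1 and both others of Parvb did not pass. Leaving out single arrays ended the call of Actn1 in 5 cases, of Fermt3 and Parvb in 8 and of Lims1 in 9, and that of Tns1 in none.

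Over these 6 lists together 11 of 65 tested genes rose (16.9%) and 4 fell (6.15%), against 11.6% and 6.23% of all tested genes. Without Mmp12, 10 of 64 rose. With the signals as deposited 6 rose and none fell, a setting in which the median log2 fold change over the array was 0.11 instead of -0.03. With 1 array left out the rises ran from 2, without LacZ 1 or p38 4, to 22, without p38 1.

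**Figure D4:**
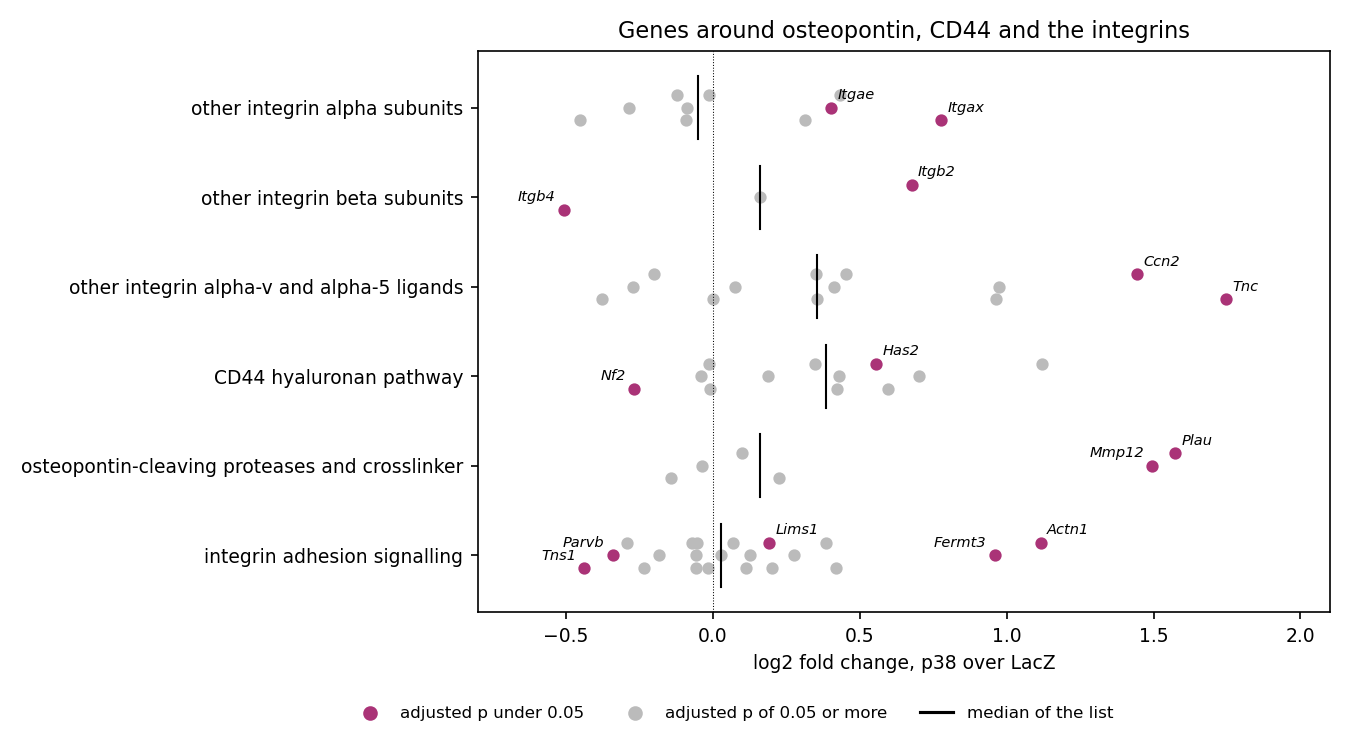
Log2 fold change of p38 over LacZ for each tested gene (point) of the 6 lists of other integrins, ligands, hyaluronan genes, proteases and adhesion genes, with the list's median as a black bar. Named magenta points passed at an adjusted p under 0.05, 11 higher and 4 lower, and most grey points lie within 0.5 of 0.

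The values of Spp1, Cd44 and Itgb1 were set side by side under every other way of treating the data. Spp1 lay between 2.57 and 3.19 when single arrays were left out, the lowest without p38 4 and the highest without p38 1. Cd44 (first probe set) lay between 0.74 and 1.12 when single arrays were left out. Over every setting run it lay between 0.20, within Started arrays, and 1.56. Itgb1 (first probe set) kept its positive sign in every setting run. The widest moves came from splitting the arrays by fluidics status, a split added after the data had been seen, in which Started holds a single LacZ array, LacZ 5.

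**Figure D5:**
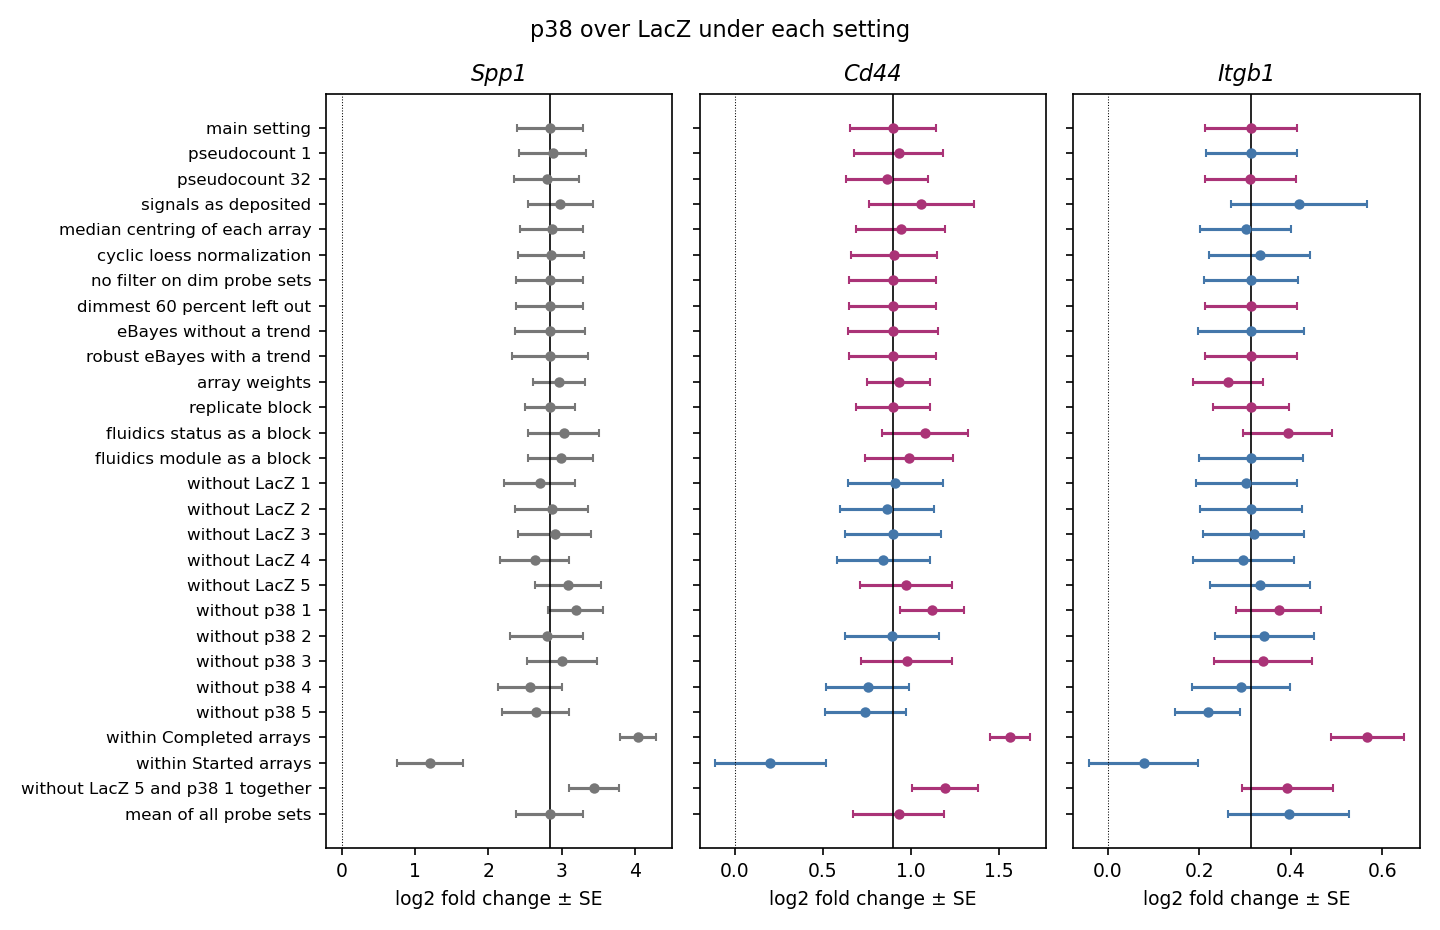
Log2 fold change of p38 over LacZ with its standard error under each setting (rows) for Spp1, Cd44 and Itgb1, with a solid line at the reported value and a dotted line at 0; magenta marks an adjusted p under 0.05, blue 0.05 or more, and grey Spp1, which was not tested. Spp1 runs from 1.2 within Started arrays to 4.04 within Completed arrays, each refitted on those arrays alone, and most single arrays left out turn Cd44 and Itgb1 blue.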

How the data were processed

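The authors deposited a linear intensity for each probe set on each of 10 arrays. The submitters' processing notes name GCOS 1.2 for 9 of the 10 samples, and how arrays were scaled is not stated there. Array medians differed, so log2(signal + 16) values were quantile normalized, and the pseudocount understates changes of dim probe sets. The 57 control probe sets and the dimmest 40% of the other 31042 were left out (mean log2 level under 5.80, a signal of 39.6). The remaining 18625 were fitted with limma 3.58.1 in R 4.3.3 (eBayes with a trend, two-sided, Benjamini-Hochberg adjusted p over all tested probe sets, threshold 0.05), with no covariate. The brightest probe set stood for a gene. A group mean below the limit gave a bound. Of all 31099 probe sets, 20832 named 1 gene, 436 several and 9831 none. The steps were tested on simulated data. Each pathway list gave up to 4 called genes in each direction by smallest p, each marker list up to 3 genes, and Spp1 and Cd44 each the 8 genes of highest Pearson correlation. Other pseudocounts, scalings, filters, variance models, weights, blocks and arrays left out were tried. Members and lists were chosen with earlier results of these data known.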

Additional observations from a re-analysis of the deposited data

How the results depend on the processing

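The limits are 5 arrays per group, unstated scaling and a fluidics status that overlaps the groups in part. Splits by status and the joint removal of LacZ 5 and p38 1 were chosen after seeing the data, and within Started arrays the lone LacZ array was assumed to vary like the others. The cause of the moves below was not tested, except that filters and left-out arrays change the number of tests and samples.

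The 2 receptor genes that rose became 1 with a pseudocount of 1, with the signals as deposited, with median centring, with cyclic loess, without the filter, without a variance trend, with the module as a block and with the mean of all probe sets, 4 within Completed arrays, 0 within Started arrays, and 0 to 3 with single arrays left out. None fell in any setting run by the probe set that stands for the gene. Of the genes in the 6 lists, 11 rose and 4 fell. These became 6 and 0 with the signals as deposited, 5 and 2 without the filter, 6 and 2 without a trend, 22 and 9 with array weights, 29 and 9 within Completed arrays, and 0 and 0 within Started arrays. Rises were 6 with the module as a block and 22 without LacZ 5 and p38 1, falls were 2 with median centring, and single arrays left out gave 2 to 22 rises and 2 to 5 falls. Over the whole array 1601 probe sets rose and 1378 fell, against 956 and 87 as deposited (91.7% of calls higher, against 53.7%), 2618 and 2577 with weights, 3088 and 3640 within Completed arrays, and 2 and 3 within Started arrays. Falls were 777 with median centring (67.9% of calls higher) and 865 without the filter, and single arrays left out gave 698 to 2317 rises and 532 to 2151 falls. Spp1 differed by 4.04 within Completed and 1.2 within Started arrays, and by 2.57 to 3.19 with single arrays left out.

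Signs reversed as follows. Itgb5 (1370802_at) was 0.051 as deposited and 0.31 within Started arrays, and within Completed arrays it was -0.39 and passed (adjusted p = 0.0293). Itgav (1393226_at), near 0 throughout, was -0.034 with weights, -0.12 within Started arrays and from -0.084 (without p38 5) to 0.098 (without p38 1) with single arrays left out, being negative also without LacZ 1, LacZ 2 or p38 4. Itgb5 (1398358_a_at) was -0.0069 within Started arrays and from -0.021 (without LacZ 4) to 0.11 (without LacZ 1) with single arrays left out. Within Started arrays Itgav (1383880_at) was -0.27, Itga5 -0.020, Itgb3 -0.21, Tnc -0.35, Has2 -0.097, Csf3r -0.080, S100a9 -0.54, Itga2b 0.21, Col1a2 -0.62 and Tnni3 0.010. With the mean of all probe sets Nf2 was 0.052 and Ddr2 0.016.

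LacZ and p38 samples share replicate numbers, and the labels state no pairing. Deviations of same-numbered samples correlated between -0.13 and 0.28, and 5 such values cannot decide whether samples were paired. With the replicate block the receptor genes gave 2 rises, the lists 14 rises and 4 falls, and the array 1670 and 1410. Spp1 stayed at 2.84 with a standard error of 0.34, against 0.45 without the block. The second Itgb1 probe set passed (adjusted p = 0.0426). Of the 5 LacZ samples, LacZ 1 and LacZ 5 correlated best with their own number.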

Other observations

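Of 34 tested markers of cell types other than macrophages, 9 passed by limma, 4 higher (11.8%) and 5 lower (14.7%), where 11.6% and 6.23% of all tested genes rose and fell. None of 8 fibroblast markers passed, and 2 had an unadjusted p under 0.05. Of 5 smooth muscle markers, Tagln and Cnn1 rose and Smtn and Myh11 fell. Of 5 endothelial markers, the angiopoietin receptor relative Tie1 fell by 0.49 (adjusted p = 0.0141) and the VEGF receptor gene Kdr by 0.25 (adjusted p = 0.0370). Of 6 cardiomyocyte markers, the calcium release channel gene Ryr2 fell by 0.26 (adjusted p = 0.0331). Of 2 platelet markers tested, Pf4 rose 1.57-fold (adjusted p = 0.0147). Of 6 T and NK cell markers, Cd8a was at least 1.88-fold higher, but it cleared the brightness limit through the p38 arrays alone, had an adjusted p of 0.0640 without that filter, and its other probe set did not pass (adjusted p = 0.100). Neither of 2 tested neutrophil markers passed, with S100a9 at 0.85 (adjusted p = 0.288) and Csf3r at 0.53 (adjusted p = 0.0771). Single arrays left out ended the calls of Ryr2 and Cd8a in 7 cases each, of Kdr and Smtn in 6 and of Tagln in 5, and those of Tie1, Pf4 and Cnn1 in none. With the signals as deposited Tie1, Kdr, Ryr2, Smtn and Tagln did not pass. Ryr2 and Kdr also did not pass with median centring or without the brightness filter.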
